A study of Mus musculus with 38 samples.

Results

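Gene expression was compared in Tcf21 lineage cells of adult mouse visceral adipose tissue between mice on a long high-fat diet and mice kept to 6 months of age on regular diet. The 7 libraries were chosen by their sample titles: 5 wild-type (WT) libraries taken after 12 weeks of high-fat diet (12W HFD, replicates 1 to 5) and 2 WT libraries taken at 6 months of age (6M, replicates 1 and 2). They are 7 of the 29 RNA-seq libraries and of the 38 libraries of all kinds in the series.

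The series profiled WT and Tcf21 knockout (KO) cells of this lineage by RNA-seq and by ATAC-seq, which maps open chromatin, at several ages and diet times. Mice of the 12W HFD group were WT by title, although the genotype field of replicates 3 to 5 reads Tcf21 KO, and ate Teklad diet TD.06414 for 12 weeks, starting at 6 weeks of age. Mice of the 6M group carried the WT label and ate LabDiet 5001 until 6 months of age. In both groups tamoxifen had been given to switch on MerCreMer, a Cre recombinase that works only when the drug is bound. The labels list 75 mg/kg per day by gavage for adults and 100 µg per day for newborns without saying which of these a given mouse received, and they do not name the locus that drives MerCreMer. Each library came from 5000 sorted cells. The 2 groups differed in diet and in age at once, so the diet and the age cannot be told apart by this comparison. Nothing in the labels says that the replicates were separate animals or pools, so the p-values measure only spread between libraries. For the reported calls, that spread was estimated within groups over all RNA-seq libraries of the series, not only those compared here.

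Tcf21 is a basic helix-loop-helix transcription factor of mesenchymal progenitors, and cells that have expressed it in visceral fat include fibroblast-like precursors of adipocytes. When adipose tissue expands in obesity, precursors lay down collagen-rich matrix and can enter the adipocyte path, while macrophages gather around dying adipocytes. Macrophages that take up the released lipid are known as lipid-associated macrophages. They carry the lipid receptor Trem2, the scavenger receptor Cd36, droplet coat proteins and lysosomal acid lipase.

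Tcf21 itself measured 13.5, 10.2, 5.86, 7.13 and 10.1 TPM (an abundance scaled for transcript length and for the library total) in 12W HFD replicates 1 to 5, and 2.24 and 5.54 TPM in 6M replicates 1 and 2. All 5 diet libraries lay above both 6M libraries, by a narrow margin between 12W HFD replicate 3 and 6M replicate 2. The difference was 1.12 ± 0.51 (log2(TPM + 1), SE) and did not pass the test across all genes (limma, Benjamini-Hochberg adjusted p = 0.314). An exact two-sided permutation test over the 7 libraries (21 arrangements) gave p = 0.0476 on the log2 scale, the smallest it can give, and 0.143 on the TPM scale. In the younger WT groups Tcf21 ranged from 42.3 to 48.1 TPM at postnatal day 12, from 37.6 to 109 TPM at 3 weeks of age and from 11.3 to 47.4 TPM after 1 week of high-fat diet, and all but that last range lay wholly above both groups compared here. The 12W HFD replicates with the conflicting genotype field, 3 to 5, have Tcf21 values of 5.86 to 10.1 TPM, the 3 lowest of that group. The same conflict stands on both postnatal day 12 libraries. Groups here follow the titles, and with 12W HFD replicates 1 and 2 alone the counts given below for all genes become 37 higher and 10 lower.

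The library totals and contents set the frame for every value below. The listed TPM summed to between 944177 and 954668 in the diet libraries and to 956781 and 969385 at 6M, and the read depth cannot be read from TPM. Between 12137 and 12409 genes reached 1 TPM in the diet libraries, against 11270 to 11963 at 6M. The 14 fibroblast lineage markers, led by decorin (Dcn), summed to between 38047 and 54516 TPM in the diet libraries and to 41819 and 48146 TPM at 6M, and none of them passed the test in either direction. Immunoglobulin genes took 10.7% of the total in 6M replicate 1 and 0.186% in 6M replicate 2, against 0.524% to 3.17% in the diet libraries. Haemoglobin genes took 0.941% and 4.09% at 6M, and 0.378% to 4.38% in the diet libraries. The 6M libraries thus differed from each other in their content of blood and immune RNA.

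After 12 weeks of diet, 110 of 15659 tested genes were higher and 28 were lower than at 6M (limma on log2(TPM + 1) over all 29 libraries, adjusted p below 0.05), which is 0.702% and 0.179% of the genes tested, or 0.881% in either direction. The higher genes included 10 of 22 lipid-associated macrophage genes, and the lower genes included immunoglobulin segments and S100a9. Of the higher genes, 104 of 110 had all 5 diet libraries above both 6M libraries, and 22 of the 28 lower genes had all 5 below. Across all genes tested, 16.5% had all 5 diet libraries above both 6M libraries and 4.24% had all 5 below. Before adjustment 1734 genes were higher and 455 lower at p below 0.05, 11.1% and 2.91% of those tested. The median gene was 0.22 higher (log2) after the diet. When libraries were rescaled to the median ratio, which moved that median to 0.05, the split became 60 higher and 45 lower.

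These calls lean on few libraries. Without 6M replicate 1 there were 153 higher and 27 lower genes, of which 48 and 7 were among the genes called with all libraries. Without 6M replicate 2 the counts turned to 46 higher and 100 lower, with 30 and 19 shared. A fit of the 7 libraries alone, with 5 residual degrees of freedom, called 0 genes, although 2158 were higher and 515 lower at an unadjusted p below 0.05. Every call therefore uses the spread estimated over the 8 RNA-seq groups. All 110 higher genes kept a positive difference when each of the 7 libraries was left out in turn. For the 104 without overlap this was bound to hold. Only 7 higher genes (Atp6v0d2, Cadm1, Dcstamp, Iqgap1, Slit2, Rapgef6 and Rgs1) and 5 lower genes (Drap1, Elavl4, Smim41, Igkv6-13 and Ighv1-74) passed in all 7 of those fits.

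Of the 22 lipid-associated macrophage genes, 10 rose and 0 fell, against the background of 0.702% of genes called higher, and their median difference was 1.61 against 0.22 for all genes tested. All 22 had a positive difference, and 14 of 22 (63.6%) had no overlap between the groups, against 16.5% of all genes. The members that rose were Atp6v0d2, Spp1, Trem2, Mmp12, Cd36, Itgax, Lgals3, Lipa, Plin2 and Ctsb. The count was 7 under median-ratio scaling, 2 without 6M replicate 1, 6 without 12W HFD replicate 1, 6 without 12W HFD replicate 4, and 2 with 12W HFD replicates 1 and 2 alone.

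Atp6v0d2, a subunit of the vacuolar proton pump best known from osteoclasts and macrophages, had the largest rise named by the rule. It measured 57.5, 17.0, 61.6, 103 and 38.0 TPM in 12W HFD replicates 1 to 5, and 0.37 and 3.70 TPM at 6M. The lowest diet library was well above the higher 6M library, and the difference was 4.25 ± 0.47 (adjusted p = 1.2e-05). The gene was near 0 in all younger groups, with no library above 0.05 TPM at postnatal day 12, at 3 weeks or after 1 week of diet. Dcstamp, a membrane protein needed for cell fusion of osteoclasts and macrophages, stood at 1.42 to 8.09 TPM in the diet libraries against 0.10 and 0 TPM at 6M, and rose by 2.25 ± 0.38 (adjusted p = 0.00291). It was named after its values were seen, as one of the genes that passed with any library left out.

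Trem2, a lipid-sensing receptor that these macrophages carry, measured 223, 46.2, 154, 330.2 and 62.4 TPM after the diet, and 3.62 and 26.8 TPM at 6M. No diet library fell to the 6M level, although 12W HFD replicate 2 came closest to 6M replicate 2. The rise was 3.50 ± 0.71 (adjusted p = 0.0143). Itgax, the integrin CD11c, measured 15.8, 2.60, 10.9, 17.0 and 2.70 TPM against 0.41 and 0 TPM, a rise of 2.86 ± 0.50 (adjusted p = 0.00346). Lgals3, the secreted lectin galectin-3, measured 1338, 349, 1010.3, 1396 and 616 TPM against 84.8 and 169.6 TPM, a rise of 2.79 ± 0.52 (adjusted p = 0.00688). For each of these genes 12W HFD replicates 1, 3 and 4 were the 3 highest libraries and replicates 2 and 5 the lowest of the diet group, with no overlap with 6M. Without 6M replicate 1, Trem2 and Lgals3 no longer passed (adjusted p = 0.244 and 0.0988), and without 6M replicate 2 Itgax did not (adjusted p = 0.0544).

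Members that take up, coat or cleave lipid rose as well. Cd36, the long-chain fatty acid and scavenger receptor, measured 903, 211, 519, 883 and 461 TPM after the diet and 37.0 and 90.6 TPM at 6M, a rise of 3.16 ± 0.71 (adjusted p = 0.0259). Plin2, the coat protein of lipid droplets in cells other than adipocytes, measured 1179, 500.2, 692, 945 and 769 TPM against 210.3 and 294.5 TPM, a rise of 1.65 ± 0.34 (adjusted p = 0.017). Lipa, the lysosomal acid lipase that frees cholesterol and fatty acids, measured 316, 109, 181, 346 and 169 TPM against 48.1 and 82.7 TPM, a rise of 1.69 ± 0.35 (adjusted p = 0.017). In all 3 genes every diet library was above both 6M libraries and 12W HFD replicate 2 was the lowest of the 5. Soat1, which esterifies cholesterol for storage and was named after its values were seen, rose by 1.56 ± 0.39 (adjusted p = 0.0453), from 18.7 and 21.6 TPM at 6M to between 40.9 and 84.5 TPM. Plin2 and Lipa lost their calls without 6M replicate 1 (adjusted p = 0.138 and 0.177). Cd36 passed in 4 of the 7 fits with a library left out (not without 12W HFD replicates 1 or 4 or 6M replicate 1) and Soat1 in 2 (not without 12W HFD replicates 1, 3 or 4 or either 6M library), with adjusted p reaching 0.205 and 0.181.

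Spp1 and Mmp12 varied widely within the diet group. Spp1, the secreted phosphoprotein osteopontin, measured 738, 19.5, 85.1, 134 and 282 TPM after the diet, and 3.75 and 19.7 TPM at 6M. Mmp12, the macrophage elastase, measured 997, 34.8, 256, 746 and 193 TPM against 6.59 and 75.7 TPM. Both passed the test, with rises of 3.80 ± 0.91 and 3.46 ± 0.84 (adjusted p = 0.0355 and 0.0379), but 12W HFD replicate 2 lay below 6M replicate 2 in each, so the groups overlapped. Spp1 passed in 3 of the 7 fits with a library left out (not without 12W HFD replicates 1, 4 or 5 or 6M replicate 1, adjusted p up to 0.296). Mmp12 passed in 2 (not without 12W HFD replicates 1, 3, 4 or 5 or 6M replicate 1, adjusted p up to 0.474).

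Members of the same list that did not pass included Gpnmb, a glycoprotein of lysosomes and melanosomes, at 145 to 841 TPM against 65.3 and 93.5 TPM (2.12 ± 0.73, adjusted p = 0.16). Ctss, the macrophage cathepsin that trims the invariant chain, was at 355 to 1207 TPM against 189 and 146 TPM (1.96 ± 0.59, adjusted p = 0.105). Both had no overlap between the groups. Lpl, lipoprotein lipase, was at 668 to 2099 TPM against 590.2 and 907 TPM. Apoe was at 3836 to 11316 TPM against 11694 and 2099 TPM. These 2 members, which fibroblasts and adipocyte precursors also express, overlapped between the groups. At 3 weeks the macrophage marker Adgre1 and the leukocyte marker Ptprc reached at most 0.64 and 1 TPM. Members that rose were present in those libraries, with Plin2 at 131 to 310 TPM and Ctsb at 430 to 839 TPM. Lipa was at 38.6 to 72.7 TPM and Cd36 at 18.99 to 128 TPM. Lgals3 reached 24.5 TPM there, and Spp1, Trem2, Mmp12, Atp6v0d2 and Itgax at most 3.87 TPM. The cell type behind each rise was not tested.

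**Figure D1:**
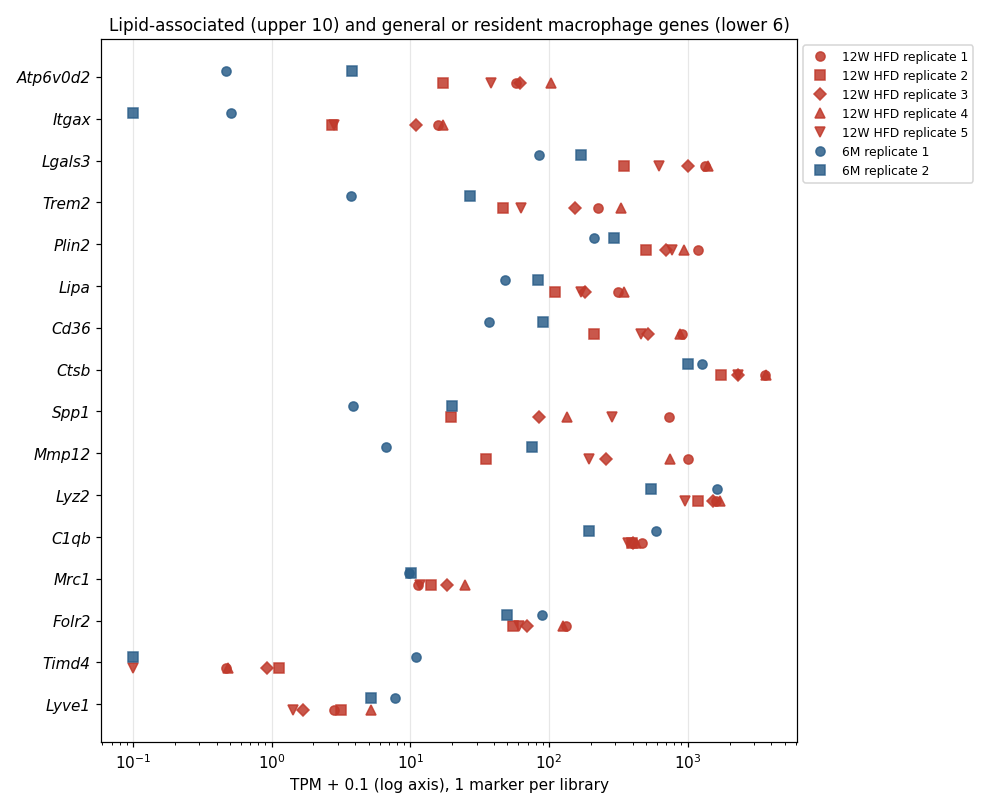
TPM + 0.1 on a log axis for 16 genes in each of the 5 12W HFD libraries (red) and 2 6M libraries (blue), 1 marker per library. The first 8 genes have all 5 diet libraries to the right of both 6M libraries, Spp1 and Mmp12 overlap through 12W HFD replicate 2, and of the lower 6 genes Lyz2, C1qb, Folr2 and Timd4 overlap.

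Open chromatin at the gene starts was available from 2 WT ATAC-seq libraries taken after 12 weeks of diet. No 6M open-chromatin library was analysed here, so these peaks describe the diet state and not the change. The sequences of 4 promoters are shown because they part the rising genes into starts with and without a called peak. Each is the 250 bases upstream of the gene start on GRCm38.p6 (the build called mm10 in the labels) from RefSeq, read 5′ to 3′ along the gene's strand. Capitals mark exact matches on either strand to TGANTCA (the AP-1 site), CAGCTG (an E-box that Tcf21-type factors can bind) or GAGGAA (the core of PU.1 sites). The search also held the E-box CACGTG, which none of the 4 sequences contain.
Trem2: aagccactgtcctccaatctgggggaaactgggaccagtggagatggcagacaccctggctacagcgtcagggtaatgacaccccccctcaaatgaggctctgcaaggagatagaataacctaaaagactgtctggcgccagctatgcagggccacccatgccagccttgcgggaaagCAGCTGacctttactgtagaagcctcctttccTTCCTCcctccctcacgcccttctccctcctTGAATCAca
Itgax: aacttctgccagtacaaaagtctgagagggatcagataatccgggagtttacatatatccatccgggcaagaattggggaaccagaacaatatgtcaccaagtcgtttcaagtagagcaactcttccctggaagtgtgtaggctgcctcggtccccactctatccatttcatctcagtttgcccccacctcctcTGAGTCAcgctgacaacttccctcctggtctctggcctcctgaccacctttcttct
Plin2: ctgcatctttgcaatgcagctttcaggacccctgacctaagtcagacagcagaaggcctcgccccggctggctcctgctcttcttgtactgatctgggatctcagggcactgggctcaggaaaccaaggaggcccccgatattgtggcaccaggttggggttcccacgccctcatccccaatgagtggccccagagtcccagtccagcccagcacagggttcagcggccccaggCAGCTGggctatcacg
Lipa: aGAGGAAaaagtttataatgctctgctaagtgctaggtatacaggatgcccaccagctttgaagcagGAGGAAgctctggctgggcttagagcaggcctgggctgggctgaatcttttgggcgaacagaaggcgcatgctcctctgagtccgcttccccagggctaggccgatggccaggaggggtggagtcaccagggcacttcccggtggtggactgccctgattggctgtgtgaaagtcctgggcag

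The Trem2 window (chr17:48346151-48346400, plus strand) held no peak in either library. The Itgax window (chr7:128129300-128129549, plus strand) held a peak in 1 of the 2 libraries, with a −log10 q of 4.22. The Plin2 window (chr4:86670060-86670309, minus strand) and the Lipa window (chr19:34527475-34527724, minus strand) were covered in both libraries, at 149 and 142.1 for Plin2 and at 324 and 238 for Lipa (−log10 q). Lgals3 and Cd36 were covered in both as well, at 233 and 189 for Lgals3 and at 10.2 and 5.58 for Cd36. These windows, chr14:47373610-47373859 for Lgals3 and chr5:17835897-17836146 for Cd36, lie inside the listed gene spans. The spans are chr14:47367751-47386160 and chr5:17781690-17888801, and the outer start of either gene was not examined. In the windows examined, the peaks at Plin2, Lipa and Lgals3 were far stronger than those at Cd36 and Itgax. Among genes with a mean of at least 10 TPM and a promoter entry, 5632 of 5810 (96.9%) had a peak in both libraries. The share was 56 of 65 for genes higher after the diet, 12 of 16 for lipid-associated macrophage genes, 3 of 12 for macrophage markers, 8 of 8 for fibroblast markers and 14 of 14 for collagens. The higher genes without a peak in both were Trem2, Spp1, Mmp12, Clec12a, Lair1, Cd300a, Cd300lb, Tlr13 and Ccdc152. Over 32851 windows of 250 bases, TGANTCA occurred in 6.75%, CACGTG in 6.02%, CAGCTG in 13% and GAGGAA in 23.3%. In the 104 windows of genes higher after the diet the shares were 11.5%, 5.77%, 21.2% and 36.5%, and in the 23 windows of lower genes 8.70%, 8.70%, 21.7% and 26.1%. A match is a description of the letters only.

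Of 25 general and resident macrophage markers, 2 rose and 0 fell (0.702% of all genes were called higher), with a median difference of 0.80. Of the 25, 7 (28.0%) had no overlap upward, against 16.5% of all genes. The list shares Itgax with the lipid-associated list, and the difference between the lists was not tested. The 2 were Itgax and Cd68, a lysosomal membrane protein of phagocytes. Cd68 measured 668, 360.5, 653, 774 and 242 TPM after the diet and 108 and 122 TPM at 6M, with no overlap, a rise of 2.10 ± 0.48 (adjusted p = 0.0273) that held in 2 of the 7 fits with a library left out (not without 12W HFD replicates 1, 3 or 4 or either 6M library, adjusted p up to 0.129). Lyz2, the lysozyme gene and the most abundant of the markers, was at 961 to 1701 TPM against 1631 and 540.3 TPM. C1qb, a complement subunit made by macrophages, was at 371 to 467 TPM against 594 and 194 TPM, and Adgre1, which encodes F4/80, at 48.8 to 159 TPM against 69.0 and 8.23 TPM. In these 3 genes 6M replicate 1 lay within or above the range of the diet libraries and only 6M replicate 2 lay below it. Markers of tissue-resident macrophages differed in level. Folr2, a folate receptor, was at 54.5 to 131 TPM against 88.4 and 49.4 TPM, and Mrc1, the mannose receptor, at 11.3 to 24.8 TPM against 9.60 and 9.97 TPM. Timd4 reached 1.03 TPM in the diet libraries against 10.9 and 0 TPM, and Lyve1 5.06 TPM against 7.65 and 5.13 TPM. None of these 4 passed the test. The 25 markers summed to between 2956 and 6083 TPM after the diet and to 4247 and 1541 TPM at 6M. In bulk libraries such as these, fewer cells of a type and less RNA per cell cannot be told apart. The part that macrophages within the sorted cells had in these differences was not tested.

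Other genes named by the rule are known from myeloid cells. Rgs1, which shortens chemokine receptor signalling in leukocytes, measured 185, 133, 168, 296 and 128 TPM after the diet and 11.5 and 15.1 TPM at 6M. The groups were far apart, and the rise of 3.62 ± 0.63 (adjusted p = 0.00346) passed with any 1 library left out. Hpgds, the prostaglandin D2 synthase of haematopoietic cells, measured 42.4, 25.5, 46.2, 61.7 and 20.8 TPM against 5.30 and 0.73 TPM, a rise of 3.51 ± 0.53 (adjusted p = 0.00113). Clec12a, an inhibitory lectin receptor of myeloid cells, measured 59.0, 33.8, 57.7, 90.0 and 23.9 TPM against 8.55 and 1.13 TPM, a rise of 3.44 ± 0.61 (adjusted p = 0.00394). In all 3, 12W HFD replicate 4 was the highest library. Stap1, a signalling adaptor, rose by 3.13 ± 0.54 from 0.69 and 0 TPM to between 6.38 and 26.4 TPM, and Lair1, an inhibitory collagen receptor of leukocytes, by 2.85 ± 0.69 from 7.01 and 0 TPM to between 7.24 and 45.1 TPM. The Lair1 groups touch, since 12W HFD replicate 5 is only just above 6M replicate 1. Without 6M replicate 2, Hpgds, Clec12a, Stap1 and Lair1 no longer passed (adjusted p = 0.0513, 0.183, 0.0632 and 0.706). Lair1 was also lost without 12W HFD replicate 1 or 4.

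Tpsb2, a mast cell tryptase, measured 176, 63.4, 69.7, 11.2 and 117 TPM after the diet and 10.6 and 7.72 TPM at 6M, a rise of 2.70 ± 0.64 (adjusted p = 0.0355). The margin was small, because 12W HFD replicate 4 was barely above 6M replicate 1. Cpa3, a mast cell carboxypeptidase, was at 134, 46.7, 51.6, 5.50 and 83.4 TPM against 3.93 and 15.8 TPM and did not pass (2.31 ± 0.76, adjusted p = 0.141). Of the 12 neutrophil and mast cell markers tested, 1 rose (Tpsb2) and 1 fell (the neutrophil gene S100a9), beside 0.702% and 0.179% of all genes. At an unadjusted p below 0.05, 7 were higher and 3 lower, against 11.1% and 2.91% of all genes, and the median was 1.10. The summed markers reached 23.3 TPM in 12W HFD replicate 4, between 217 and 508 TPM in the other diet libraries, and 376 and 47.0 TPM at 6M. The list joins 2 cell types, so its median and sum describe neither alone. S100a8, another neutrophil gene, was at 0 to 6.87 TPM after the diet and at 1.75 to 220 TPM at 6M. Tpsb2 passed in 2 of the 7 fits with a library left out, with adjusted p up to 0.242, and was lost without 12W HFD replicates 1, 3 or 5 or either 6M library.

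Slit2, a secreted guidance cue named after its values were seen, measured 17.4, 11.7, 14.4, 23.4 and 20.98 TPM after the diet and 2.21 and 2.37 TPM at 6M, a rise of 2.46 ± 0.35 (adjusted p = 0.000574). Here the 6M libraries stood out as low: the range was 25.4 to 33.3 TPM at postnatal day 12, 16.1 to 43.0 TPM at 3 weeks and 11.7 to 18.9 TPM after 1 week of diet. The contrasts with 3 weeks from the same fit, which share the 3-week libraries, were -0.48 (adjusted p = 0.213) for 12W HFD and -2.94 (adjusted p = 1.53e-06) for 6M. Cadm1, a cell adhesion molecule, was low after 1 week of diet as well as at 6M. It measured 30.4, 28.0, 21.9, 82.5 and 21.9 TPM against 1.25 and 3.35 TPM (3.40 ± 0.56, adjusted p = 0.00253), with 12.3 to 48.7 TPM at 3 weeks and 1.40 to 11.4 TPM after 1 week of diet, a range that overlaps 6M. Slit2 and Cadm1 passed with any 1 library left out.

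Iqgap1, a scaffold that links the cytoskeleton to signalling, measured 83.5, 80.9, 81.3, 88.8 and 72.7 TPM after the diet and 24.9 and 35.2 TPM at 6M, a rise of 1.43 ± 0.21 (adjusted p = 0.000997) that passed with any 1 library left out. The diet libraries differed little from each other and lay far above both 6M libraries. The levels were 65.3 to 87.6 TPM after 1 week of diet and 32.0 to 46.9 TPM at 3 weeks, so both diet groups lay above the regular-diet groups at 3 weeks and 6M. Gucy1a1, a subunit of the nitric oxide receptor, was at 4.58 to 12.2 TPM against 0.56 and 1.78 TPM (2.28 ± 0.43, adjusted p = 0.00694), and at 18.7 to 46.2 TPM at 3 weeks. Iqgap1 and Gucy1a1 were named after their values were seen, and Gucy1a1 did not pass without 6M replicate 1 (adjusted p = 0.0993).

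**Figure D2:**
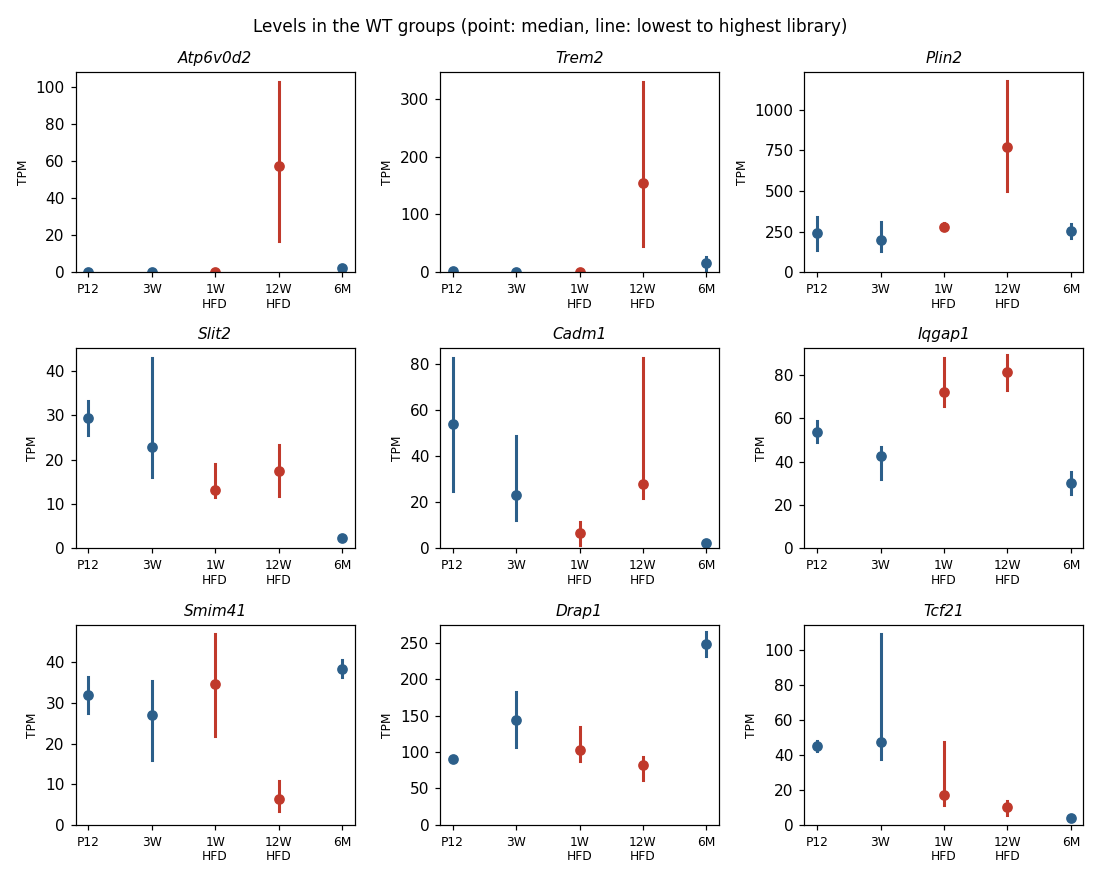
TPM of 9 genes in the WT RNA-seq groups at postnatal day 12 (P12), 3 weeks (3W), 1 week of high-fat diet (1W HFD), 12 weeks of high-fat diet (12W HFD) and 6 months (6M), with points for medians and lines from the lowest to the highest library. Atp6v0d2 and Trem2 are near 0 before 12W HFD, Slit2 is lowest at 6M (2.21 and 2.37 TPM), Smim41 is lowest at 12W HFD (3.30 to 10.7 TPM), and Drap1 is highest at 6M (232 and 264.6 TPM).

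Regulators of differentiation gave few calls. Id2, an inhibitor of basic helix-loop-helix factors, measured 138, 194, 182, 233 and 177 TPM after the diet and 24.3 and 77.8 TPM at 6M. The difference from 6M was 2.04 ± 0.44 (adjusted p = 0.0212), with no overlap. At 3 weeks Id2 ranged from 170 to 715 TPM, and both groups were lower than that in the same fit. The contrasts with 3 weeks were -1.03 (adjusted p = 0.0217) for 12W HFD and -3.07 (adjusted p = 1.99e-05) for 6M. Id2 was the only call among 16 inhibitors of adipogenesis tested, beside 0.702% of all genes called higher. The list's median difference was 0.09 as deposited and turned to -0.07 under median-ratio scaling. Without 6M replicate 1 Id2 did not pass (adjusted p = 0.31). None of 19 adipogenic transcription factors passed (0 higher and 0 lower), and their median of 0.01 became -0.16 under median-ratio scaling. At an unadjusted p below 0.05, 2 were higher and 1 lower, against 11.1% and 2.91% of all genes. Pparg, the master regulator of adipocytes, was at 21.9 to 55.4 TPM against 22.5 and 27.7 TPM. Dlk1, a preadipocyte factor that blocks differentiation, was at most 1.07 TPM in all 7 libraries.

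Markers of 2 known precursor states gave no calls. Of 18 Dpp4-type interstitial progenitor markers, 0 passed and 16 had a negative difference. At an unadjusted p below 0.05, 7 were lower, against 2.91% of all genes. Their median was -0.69 against 0.22 for all genes, and 8 of 18 (44.4%) had all 5 diet libraries below both 6M libraries, against 4.24% of all genes. Dpp4 itself was at 26.6, 32.2, 51.3, 22.8 and 48.0 TPM against 57.6 and 69.3 TPM (-0.86 ± 0.55, adjusted p = 0.517). Anxa3, an annexin, was at 144, 374, 315, 207 and 274 TPM against 487 and 659 TPM (-1.18 ± 0.37, adjusted p = 0.115). Sema3c, a secreted semaphorin, was at 23.3 to 61.1 TPM against 87.9 and 103 TPM (-1.13 ± 0.38, adjusted p = 0.149). In these 3 genes both 6M libraries were above all diet libraries, whereas Pi16 overlapped, at 379 to 805 TPM against 1165 and 544 TPM. Of 17 committed preadipocyte markers, 0 passed and 5 were higher at an unadjusted p below 0.05, against 11.1% of all genes. Their median was 0.74. Of the 17, 4 (23.5%) had all 5 diet libraries above both 6M libraries, against 16.5% of all genes. Among them F3, tissue factor, was at 381 to 596 TPM against 170.3 and 278 TPM (1.09 ± 0.31, adjusted p = 0.0846), and Icam1 overlapped at 77.7 to 136 TPM against 83.0 and 39.2 TPM. Whether the 2 lists differ from each other was not tested.

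Genes of adipocytes ranged from low to abundant in these cells. Adipoq, the adipocyte hormone adiponectin, was at 2.13, 1.35, 12.6, 6.30 and 1.95 TPM against 13.2 and 24.4 TPM (-2.03 ± 1.17, adjusted p = 0.458), and Cfd, the adipocyte protease adipsin, at no more than 3.23 TPM against 9.50 and 19.7 TPM. Both were lower in every diet library than in either 6M library without passing the test. Of 26 lipid storage and adipocyte genes, 2 rose (Cd36 and Plin2, both also on the macrophage list) and 0 fell, beside 0.702% of all genes called higher. The list median was 0.24, and -0.02 under quantile normalization. Fabp4, a lipid chaperone of adipocytes and macrophages, was at 303 to 1331 TPM against 189 and 269 TPM (1.56 ± 0.62, adjusted p = 0.242). Of 24 genes of fatty acid synthesis and oxidation 0 passed. At an unadjusted p below 0.05, 5 were higher and 1 lower, against 11.1% and 2.91% of all genes. Cpt1a, the entry enzyme of mitochondrial fatty acid oxidation, was the nearest, at 24.8 to 49.0 TPM against 19.1 and 9.54 TPM (1.19 ± 0.33, adjusted p = 0.0721).

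Of 27 lysosomal genes, 2 rose (Lipa and Ctsb) and 0 fell, beside 0.702% of all genes called higher. The median difference was 0.70, 26 were positive, and 14 of 27 (51.9%) had no overlap upward, against 16.5% of all genes. Their summed level overlapped, at 7961 to 17407 TPM against 8031 and 7429 TPM. Ctsb, cathepsin B, measured 3619, 1749.6, 2310.2, 3635 and 2298 TPM after the diet, and 1270.0 and 1003 TPM at 6M, a rise of 1.21 ± 0.27 (adjusted p = 0.0265). All 5 diet libraries were above both 6M libraries. Proton pump subunits beside Atp6v0d2 did not pass, with Atp6v0a1 at 17.2 to 77.2 TPM against 17.1 and 9.37 TPM (1.56 ± 0.43, adjusted p = 0.0737). Ctsb passed in 3 of the 7 fits with a library left out, and was lost without 12W HFD replicates 1 or 4 or either 6M library (adjusted p up to 0.256).

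**Figure D3:**
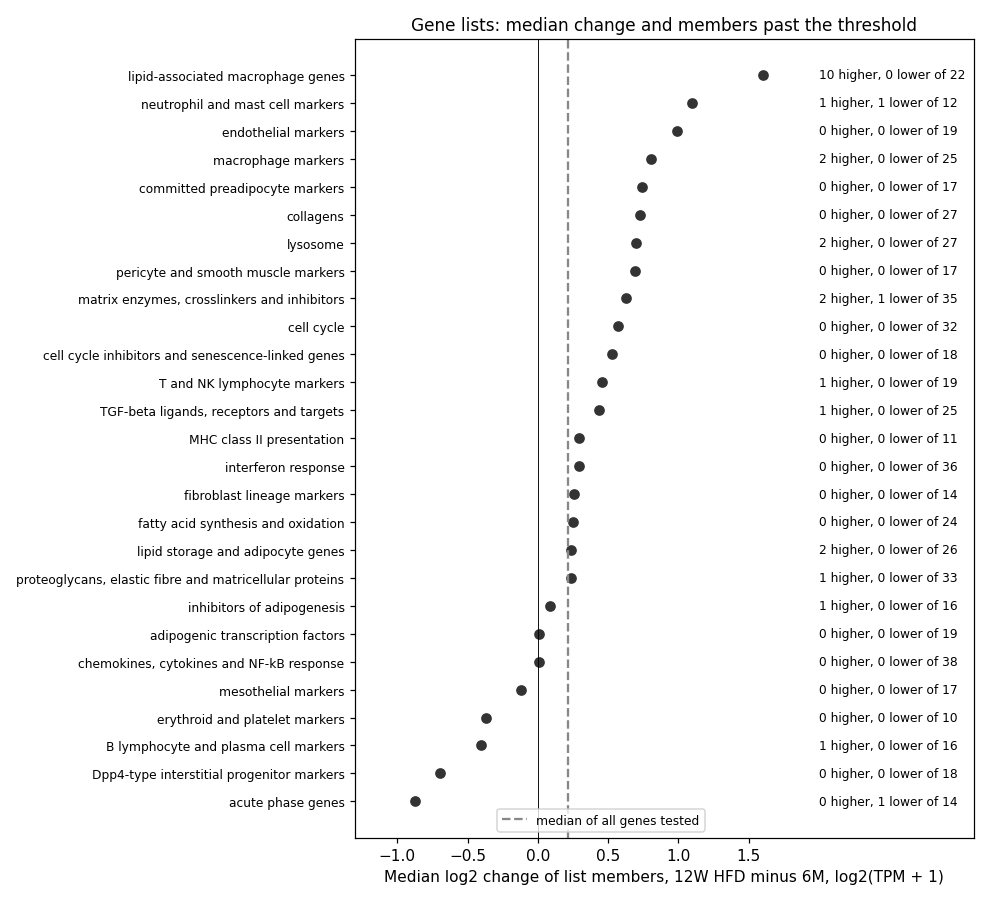
Median log2 change of the members of each gene list (12W HFD minus 6M, log2(TPM + 1)), with the number of members past the threshold at the right and the all-gene median of 0.22 as a dashed line. The lipid-associated macrophage list is highest at 1.61 with 10 of 22 higher, and acute phase genes are lowest at -0.88 with 1 of 14 lower.

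Lox, the enzyme that crosslinks collagen and elastin, measured 73.2, 48.7, 45.8, 83.1 and 154 TPM after the diet and 32.1 and 19.3 TPM at 6M. The difference from 6M was 1.52 ± 0.35 (adjusted p = 0.0308), with no overlap. At 3 weeks Lox ranged from 117 to 177 TPM, and both groups were lower than that in the same fit. The contrasts with 3 weeks were -0.94 (adjusted p = 0.0087) for 12W HFD and -2.46 (adjusted p = 2.15e-05) for 6M. Of 35 matrix enzymes, crosslinkers and inhibitors, 2 rose (Lox and Mmp12) and 1 fell (Adamtsl4), beside 0.702% and 0.179% of all genes. Their median was 0.62. At an unadjusted p below 0.05, 13 were higher and 3 lower, against 11.1% and 2.91% of all genes. All 5 diet libraries lay above both 6M libraries for 28.6% of the 35 and below for 8.57%, against 16.5% and 4.24% of all genes. None of 27 collagens passed (0 higher and 0 lower), while 6 were higher at an unadjusted p below 0.05, against 11.1% of all genes. The collagen median was 0.73, and 10 of 27 (37.0%) had no overlap upward, against 16.5% of all genes. Col8a1, a short-chain collagen of vessel walls and fibrotic tissue, missed the threshold narrowly at 47.0, 32.1, 26.1, 61.7 and 72.9 TPM against 1.52 and 12.5 TPM (2.97 ± 0.75, adjusted p = 0.0504). Col1a1, the main fibrillar collagen chain, overlapped at 239 to 1104 TPM against 366 and 214 TPM (1.03 ± 0.62, adjusted p = 0.485). Lox passed in 3 of the 7 fits with a library left out, and was lost without 12W HFD replicates 1, 4 or 5 or 6M replicate 2 (adjusted p up to 0.366).

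In the TGF-beta pathway, 1 of 25 genes rose and 0 fell, beside 0.702% of all genes called higher, with a median of 0.43. Of the 25, 7 (28.0%) had no overlap upward, against 16.5% of all genes. Skil, a corepressor of Smad proteins that is itself induced by TGF-beta, measured 38.1, 26.6, 26.8, 34.8 and 31.0 TPM after the diet and 5.73 and 11.02 TPM at 6M, a rise of 1.84 ± 0.41 (adjusted p = 0.0259). The diet libraries were close to each other and all above 6M. At 3 weeks Skil ranged from 15.7 to 43.8 TPM. Its contrasts with 3 weeks from the same fit were 0.19 (adjusted p = 0.746) for 12W HFD and -1.65 (adjusted p = 0.00725) for 6M. Ltbp2, a matrix protein related to the latent TGF-beta binding proteins, was at 7.17 to 12.4 TPM against 1.84 and 0.85 TPM (2.09 ± 0.58, adjusted p = 0.075), also with no overlap. Of 33 proteoglycans, elastic fibre and matricellular proteins, Spp1 alone passed, beside 0.702% of all genes called higher. The list median of 0.23 became -0.02 under median-ratio scaling. All 5 diet libraries lay above both 6M libraries for 27.3% of the 33 and below for 12.1%, against 16.5% and 4.24% of all genes. Tnc, the matricellular protein tenascin-C, was at 7.17 to 32.4 TPM against 0.71 and 6.47 TPM (2.21 ± 0.77, adjusted p = 0.163), and Ccn3 lay the other way at 5.59 to 20.8 TPM against 50.8 and 65.5 TPM (-2.16 ± 0.69, adjusted p = 0.124). Skil was lost without 12W HFD replicate 1 or 6M replicate 1 (adjusted p up to 0.222).

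Of the 28 lower genes, 9 were immunoglobulin genes and 19 were others. Ighv11-1, a heavy chain variable segment, was listed at 0 in all 5 diet libraries, and at 2687 and 0.97 TPM at 6M. Igkv6-13, a light chain segment, measured 3.52, 0, 0, 0 and 6.37 TPM against 29.8 and 239 TPM. The fall of Ighv11-1 thus came from 6M replicate 1 and that of Igkv6-13 mainly from 6M replicate 2, and near-identical segments may share reads, so both values are uncertain. Igkv6-13 fell by 5.41 ± 0.75 on the log2 scale (adjusted p = 0.000574) and passed with any 1 library left out. Ighv11-1 passed at an adjusted p of 0.0159, and not without 6M replicate 1 (adjusted p = 0.567). S100a9, a calcium-binding protein of neutrophils, measured 1.09, 0, 1.29, 0.88 and 1.53 TPM against 72.9 and 3.75 TPM, a fall to which 6M replicate 1 gave most (-3.33 ± 0.56, adjusted p = 0.00291, and 0.156 without that library). Cd209b, a lectin of macrophages, measured 0, 3.67, 5.20, 0 and 0 TPM against 8.15 and 25.1 TPM (-2.98 ± 0.67, adjusted p = 0.0259), and passed in 3 of the 7 fits with a library left out (not without 12W HFD replicates 1, 4 or 5 or 6M replicate 2, adjusted p up to 0.347).

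Among the other lower genes, Drap1 and Smim41 were at like levels in both 6M libraries. Drap1, a subunit of the NC2 repressor of transcription, measured 62.2, 93.2, 84.0, 68.8 and 82.0 TPM after the diet and 232 and 264.6 TPM at 6M (-1.67 ± 0.26, adjusted p = 0.00114). Smim41, a small membrane protein, measured 10.7, 6.43, 3.30, 7.45 and 5.32 TPM against 36.3 and 40.6 TPM (-2.44 ± 0.41, adjusted p = 0.00273). Both fell with a wide gap and passed with any 1 library left out. They differ in where the younger groups lie. Drap1 was at 89.1 to 91.7 TPM at postnatal day 12 and 107 to 183 TPM at 3 weeks, below the 6M libraries, whereas Smim41 was at 27.5 to 36.4 TPM at postnatal day 12, 15.9 to 35.3 TPM at 3 weeks and 21.9 to 47.0 TPM after 1 week of diet, above every 12W HFD library. Drap1 was named after its values were seen.

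Slc49a4, a membrane transporter, measured 2.41, 5.40, 10.4, 5.31 and 7.70 TPM after the diet and 43.4 and 53.0 TPM at 6M (-2.87 ± 0.66, adjusted p = 0.0284). Ces1d, a carboxylesterase of adipocytes and liver that can hydrolyse stored lipid, measured 13.5, 7.83, 7.69, 8.26 and 2.32 TPM against 23.3 and 94.7 TPM (-2.58 ± 0.59, adjusted p = 0.0284). Dact1, a modulator of Wnt signalling, measured 7.06, 13.1, 14.1, 14.9 and 14.2 TPM against 72.8 and 35.0 TPM (-1.96 ± 0.44, adjusted p = 0.0259). All 3 had a clear gap between the groups, with 6M replicate 2 the higher for Slc49a4 and Ces1d and 6M replicate 1 for Dact1. Bend5 fell by 2.34, the mRNA export factor Alyref by 2.27, the fibrillin-binding protein gene Adamtsl4 by 1.71 and the Src family kinase gene Fyn by 1.67 on the log2 scale (adjusted p = 0.0181, 0.0212, 0.0259 and 0.048), each with no overlap. Leaving out 6M replicate 1 ended the call of Slc49a4, Bend5, Alyref, Dact1, Adamtsl4 and Fyn, and leaving out 6M replicate 2 that of Slc49a4, Ces1d and Adamtsl4 (adjusted p up to 0.197 for Slc49a4, 0.511 for Ces1d, 0.168 for Bend5, 0.272 for Alyref, 0.248 for Dact1, 0.198 for Adamtsl4 and 0.398 for Fyn). Among the diet libraries, leaving out replicate 1 also ended the call of Slc49a4, Alyref, Dact1 and Fyn, and leaving out replicate 4 that of Slc49a4 and Fyn, replicate 5 that of Ces1d and Fyn, and replicate 3 that of Fyn.

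**Figure D4:**
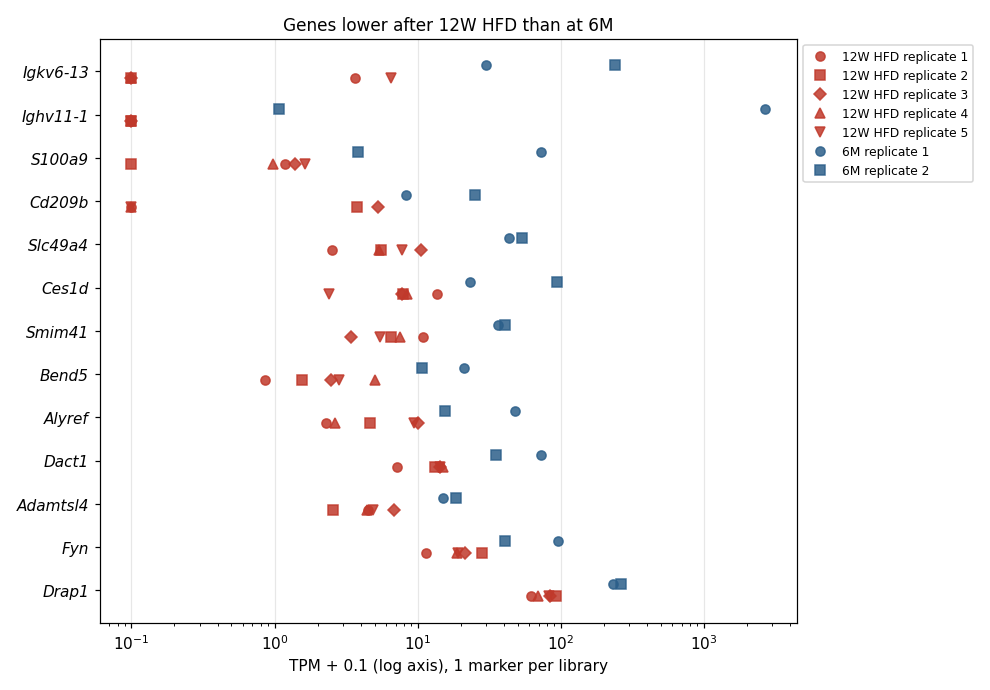
TPM + 0.1 on a log axis for 13 genes lower after the diet, in each of the 5 12W HFD libraries (red) and 2 6M libraries (blue), 1 marker per library. Ighv11-1 is at 2687 TPM in 6M replicate 1 and 0.97 TPM in 6M replicate 2, whereas Slc49a4, Smim41 and Drap1 are alike in both 6M libraries and lower in all 5 diet libraries.

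Inflammatory and immune lists gave few calls. Of 14 acute phase genes 1 fell (S100a9) and 0 rose, beside 0.179% of all genes called lower, with a median of -0.88. At an unadjusted p below 0.05, 1 was higher and 5 were lower, against 11.1% and 2.91% of all genes. Hp, haptoglobin, was at 14.5 to 156 TPM against 957 and 66.8 TPM, and Saa3, an amyloid protein induced by inflammation, at 37.7 to 365 TPM against 4233 and 74.8 TPM, so 6M replicate 1 was the high library in each and the groups overlapped. None of 38 chemokine, cytokine and NF-kB response genes passed, with a median of 0.01 that turned to -0.22 under median-ratio scaling. At an unadjusted p below 0.05, 6 of them were higher and 3 lower, against the same shares of all genes. None of 36 interferon response genes passed (3 higher at an unadjusted p below 0.05, against 11.1% of all genes), with a median of 0.29. None of 11 class II presentation genes passed (1 higher at an unadjusted p below 0.05, against 11.1% of all genes). Cd74, the invariant chain, was at 1861, 7444, 6815, 1969 and 1286 TPM against 4028 and 1840.3 TPM. Thus 12W HFD replicates 2 and 3 were high while Trem2 and Itgax were not highest there.

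Lymphocyte markers gave 1 rise in each list, beside 0.702% of all genes called higher. No overlap upward held for 5.26% of T and NK markers and 6.25% of B and plasma cell markers, against 16.5% of all genes. Il7r, the interleukin 7 receptor, measured 6.35, 4.22, 7.90, 12.7 and 5.77 TPM after the diet and 2.41 and 0 TPM at 6M, a rise of 2.11 ± 0.38 (adjusted p = 0.00543) and the only call among 19 T and NK markers. The T cell markers Cd3d and Cd3e did not pass, at differences of 0.05 and 0.50, and the list's sum was 65.8 to 417 TPM against 211 and 221 TPM. Sdc1, syndecan-1, a proteoglycan of plasma cells that epithelial and stromal cells also make, measured 166, 32.0, 56.4, 79.5 and 112 TPM against 29.6 and 3.98 TPM, a rise of 2.66 ± 0.53 (adjusted p = 0.013). It was the only call among 16 B and plasma cell markers, whose other leading members Igkc and Mzb1 were highest in 6M replicate 1, at 38603 and 361 TPM. Both Il7r and Sdc1 lost their calls without 6M replicate 2 (adjusted p = 0.278 and 0.461).

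Markers of other cell types did not pass. Of 19 endothelial markers 0 passed and 5 were higher at an unadjusted p below 0.05, against 11.1% of all genes. Their median was 0.99, with a sum of 146 to 597 TPM against 148 and 169.7 TPM. Emcn, endomucin, was the nearest, at 3.34 to 9.36 TPM against 0.90 and 0 TPM (2.34 ± 0.64, adjusted p = 0.0734), while Pecam1 overlapped at 2.36 to 22.99 TPM against 2.79 and 3.04 TPM. Of 17 pericyte and smooth muscle markers 0 passed, with 1 higher at an unadjusted p below 0.05 (11.1% of all genes) and a median of 0.69. Acta2, smooth muscle actin, was at 43.8, 97.3, 94.2, 85.3 and 52.2 TPM against 8.94 and 29.9 TPM (2.04 ± 0.97, adjusted p = 0.342). Of 17 mesothelial markers 0 passed, with 2 lower at an unadjusted p below 0.05, against 2.91% of all genes. Msln, the defining one, was at or below 0.47 TPM in all 7 libraries. Of 10 erythroid and platelet markers 0 passed at either level, and Hba-a1 overlapped widely at 848 to 17533 TPM against 3695 and 17227 TPM.

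Cell cycle genes did not pass either. Of 32, 0 passed and 2 were higher at an unadjusted p below 0.05, against 11.1% of all genes. There were 28 positive differences and the median was 0.57. Mki67, the common proliferation marker, was at 1.25, 1.53, 1.92, 2.42 and 1.28 TPM against 0.93 and 0.42 TPM (0.68 ± 0.61, adjusted p = 0.68), higher in each diet library by a small amount. Of 18 cell cycle inhibitors and senescence-linked genes 0 passed. At an unadjusted p below 0.05, 6 were higher and 1 lower, against 11.1% and 2.91% of all genes. Cdkn1a, which encodes the inhibitor p21, was at 296, 239.9, 271, 418 and 308 TPM in the diet libraries against 138 and 158 TPM at 6M, a gap without overlap that did not pass (1.02 ± 0.40, adjusted p = 0.227).

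**Figure D5:**
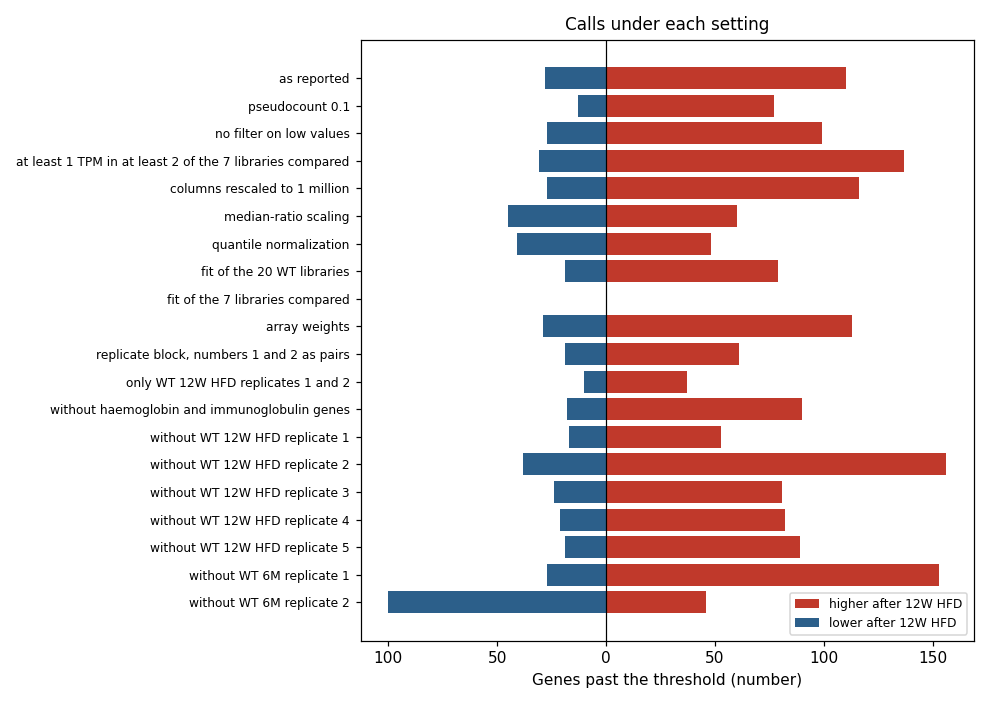
Number of genes higher (red, to the right) and lower (blue, to the left) after 12W HFD than at 6M, as reported and under each other setting. The reported counts are 110 and 28, the fit of the 7 libraries alone gives 0 and 0, and the split turns to 46 and 100 without 6M replicate 2.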

How the data were processed

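RNA-seq of sorted Tcf21 lineage cells gave 1 gene table of WT libraries, and the 7 columns compared here were matched to samples by title. The authors deposited TPM values, and the submitters' processing notes name Trim Galore 0.6, FastQC, STAR 2.5.3a, RSEM and mm10. For ATAC-seq the notes name Bowtie2 2.3 and MACS2, and the authors deposited peaks per library with a −log10 q per peak. Read depth cannot be recovered from TPM, so precision rests on the replicates.

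Differences were computed as log2(TPM + 1), a scale that understates the change of low genes. The model (limma 3.58.1 in R 4.3.3, group means over 29 libraries and 8 groups, 21 residual degrees of freedom, variance trend) was fitted to 15659 of 25746 genes, those reaching 1 TPM in 2 or more libraries, with Benjamini-Hochberg adjustment and a threshold of 0.05. The script was tested on simulated data. Figures used Python 3.11.15 and matplotlib 3.10.9. Alternatives covered the pseudocount, filter, scaling, samples fitted, array weights, a replicate block and each library left out.

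The libraries and the gene lists were chosen with earlier results of these data known. Of 46 lists, 27 are described. Genes were named by a rule: Tcf21, then the 12 largest rises and 12 largest falls past the threshold with no overlap of the 7 libraries and a mean of at least 10 TPM in the higher group (without predicted genes, with at most 2 immunoglobulin segments), then up to 4 members of each list by p, the most abundant marker of each cell type and defining genes. Dcstamp, Soat1, Slit2, Iqgap1, Gucy1a1, Drap1, C1qb, Timd4, Lyve1, Folr2, Gpnmb, Fabp4, Saa3, Apoe, Cd3d, Cd3e, Elavl4, Rapgef6, Ighv1-74, Ifi202b and Cma1 were named after their values were seen. Some results that the rule names are not reported here.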

Additional observations from a re-analysis of the deposited data

Results flagged for a closer look

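In 8 of 192 sets of 5 diet values (4.17%) the highest or lowest library lay far from the other 4. For normally distributed values chance alone flags about 1 set in 20. These are TPM values, some at 0, and some sets share genes, so that rate need not hold here. The high cases were in 12W HFD replicates 1, 3 and 4. Saa3 was at 364.57 TPM in replicate 1 against 37.7 to 53.3 TPM in the others, and Cadm1 was at 82.49 TPM in replicate 4 against 21.9 to 30.4 TPM. Dact1 was low in replicate 1, at 7.06 TPM against 13.1 to 14.9 TPM. Ptprc, the leukocyte marker CD45, was low in replicate 5, at 18.09 TPM against 38.4 to 51.3 TPM. Dlk1 was listed at 0 in replicate 2 and at 0.78 to 1.07 TPM in the others. Cma1, a mast cell chymase, was at 3.34 TPM in replicate 4 against 69.0 to 152 TPM, and the summed neutrophil and mast cell markers were 23.28 TPM there against 217 to 508 TPM. Ifi202b, an interferon-inducible gene, was at 44.89 TPM in replicate 3 and listed at 0 in the other 4.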

How the results depend on the processing

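The count of genes higher after the diet (110) became 60 under median-ratio scaling, 48 under quantile normalization, 61 with a replicate block, 37 with 12W HFD replicates 1 and 2 alone and 0 in the fit of the 7 libraries, and ranged from 46 to 156 with each library left out. The count of lower genes (28) became 13 with a pseudocount of 0.1, 45 under median-ratio scaling, 10 with 12W HFD replicates 1 and 2 alone, 18 without haemoglobin and immunoglobulin genes (an alternative chosen after seeing the data, with fewer genes tested) and 0 in the fit of the 7 libraries, and ranged from 17 to 100. The labels do not say what a replicate number shares, so the block has no stated basis in the design. Correlations of deviations were 0.21 for the replicates numbered 1 and -0.09 for those numbered 2. With 2 libraries at 6M their deviations mirror each other, so these values cannot show whether the numbers pair the samples. All 110 higher genes stayed positive with each library left out, and the 28 lower genes stayed negative except 1 of them without 6M replicate 1. For the 104 higher and 22 lower genes without overlap the sign was bound to hold. The permutation p of Tcf21 was 0.143 on TPM against 0.0476 on log2. Beyond the fits with fewer samples or genes, the cause of these changes was not tested. With 2 libraries at 6M, precision is limited by their number.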

Other observations

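The other 19 gene lists held 2 genes higher and 0 lower after the diet, beside 0.702% and 0.179% of all genes tested. Their list medians ran from -0.04 to 1.19. The 2 higher genes were Id2 on the BMP list (23 genes tested), already described above, and Bhlhe41 on the circadian clock list (17 genes tested). Bhlhe41, a repressor of the clock, rose by 2.28 on the log2 scale (limma, Benjamini-Hochberg adjusted p = 0.0202). The list with the median of 1.19 was that of sex-linked genes, of which 4 were tested, 4 were positive and 0 passed. Ddx3y, a gene of the Y chromosome, was at 57.1 to 99.2 TPM after the diet against 26.6 and 40.0 TPM at 6M. The part of sex in the differences between the groups was not tested.

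Ifi202b passed as lower after the diet (adjusted p = 0.0308) although 12W HFD replicate 3, at 44.9 TPM, lay between 6M replicates 1 and 2, at 41.6 and 51.3 TPM. The other 4 diet libraries, both postnatal day 12 libraries and all 4 libraries after 1 week of diet list it at 0, and at 3 weeks the 7 libraries ranged from 0 to 22.2 TPM. It was not called in 6 of the 7 fits with a library left out.

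Genes higher after the diet spanned a median of 34.5 kb of genome, against 20.7 kb for all genes tested and 5.23 kb for lower genes. Of the 28 lower genes, 9 were immunoglobulin genes, among them short segments such as Ighv11-1 (chr12:113981879-113982341). A median without them was not computed. With all genes tested cut by span into 5 equal bins, from short to long, the median difference was 0.10, 0.13, 0.23, 0.31 and 0.34 on the log2 scale. The part of gene span in the calls was not tested.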
